A study of Mus musculus with 21 samples.

Results

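Day 56 after sham surgery was compared with day 0 before any surgery in the right lung of mice. The comparison took every array whose label gave one of these conditions, which was 6 of the 21 arrays of the series, with 3 in each group. The series followed how the right lung grows once the left lung has been taken out, an operation called left pneumonectomy, and its other 15 arrays came from days 3, 7, 14, 28 and 56 after that operation. All mice were labelled male C57BL/6, with no transgene or drug. The day 0 mice had no pneumonectomy, and the sham mice had surgery without removal of the left lung, 56 days before sampling. The arrays of a group differed in region, with 1 from the medial lobe, 1 from the cardiac lobe and 1 from all lobes of the right lung together (the whole lung), and sham and day 0 were paired by region. Values below are listed in that order. The labels give neither the age of the mice, nor the hour of sampling, nor which mice supplied which region, so surgery, added age and sampling hour cannot be told apart. The p-values measure only the spread between arrays that is left after the region differences. It was estimated over all 21 arrays of the series, those after pneumonectomy included, and may be technical.

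The circadian clock is a feedback loop of transcription that runs in nearly every cell, the lung included. Arntl (also called Bmal1) and Clock form the activator, which binds E-box sequences and switches on the Period and Cryptochrome genes, whose proteins return to repress it. Through the nuclear receptors Nr1d1 and Nr1d2 (REV-ERB) and the ROR family, which compete for a shared element, the loop also controls Arntl itself, so that the RNA of Arntl and that of its repressors peak at opposite times of day.

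Values are RMA values on a log2 scale, in which 1 unit is a 2-fold difference, and an error after ± is the standard error of the fitted difference (n = 3 arrays a group). A gene was called when the adjusted p of limma, a linear model with moderated variances, lay under 0.05 (Benjamini-Hochberg over all 19938 genes). The 6 arrays correlated with each other at 0.983 to 0.995, and precision is limited by there being 3 arrays a group. Markers of lung tissue were high in both groups. Sftpc, the surfactant protein of alveolar type II cells, lay at 13.29, 13.40 and 13.43 at day 0 and at 13.42, 13.40 and 13.36 in sham. Of 14 alveolar type I genes and 17 alveolar type II genes none was called (limma; 0 and 2 had an unadjusted p under 0.05), with medians of -0.02 and 0.02. Xist, which is silent in males, lay between 4.33 and 4.53 on the 6 arrays, under the lower quartile of all genes (4.95 at day 0, 5.01 in sham), and the Y-linked Eif2s3y between 8.45 and 9.02.

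Few genes were called between sham lungs at day 56 and day 0 lungs. Circadian clock genes led them, with Arntl higher and Dbp, Ciart, Per2 and Per3 lower. A minority of chaperone genes were called higher, and a few T cell and interferon genes were called lower. By sign alone 29 of 31 chaperone genes were higher, and all 22 T and NK cell genes and 21 of 23 interferon response genes were lower. Of 19938 genes 76 (0.381%) were called, 35 of them higher in sham (0.176%) and 41 lower (0.206%). Of these, 17 differed by more than 1 log2 unit, 7 higher and 10 lower, and 9 of the 17 were clock genes. The median difference over all genes was 0.013. The 3 arrays of one group lay wholly above or below those of the other for 75 of the 76 called genes, the exception being Ppp2r2c, and for 14.0% of all genes. Before adjustment 1856 genes (9.31%) had a p under 0.05. The count fell to 32 when the region term was left out of the fit. Leaving out 1 day 0 array gave 42 for the whole lung, 28 for the cardiac lobe and 26 for the medial lobe, and leaving out a sham lobe gave 27 (medial) or 23 (cardiac). Without the sham whole lung it was 89, with 61 higher and 28 lower, and with each array centred on its median the split was 56 higher and 36 lower. Leaving out 2 arrays of other conditions that stood apart in small RNA level and spread of values, the day 7 cardiac lobe and the day 56 pneumonectomy whole lung, raised the count to 342. Of the 76 calls, 57 were lost when at least 1 of the 6 arrays was left out and 15 whichever array was left out, while 16 genes passed under every alternative in which they were tested.

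**Figure D1:**
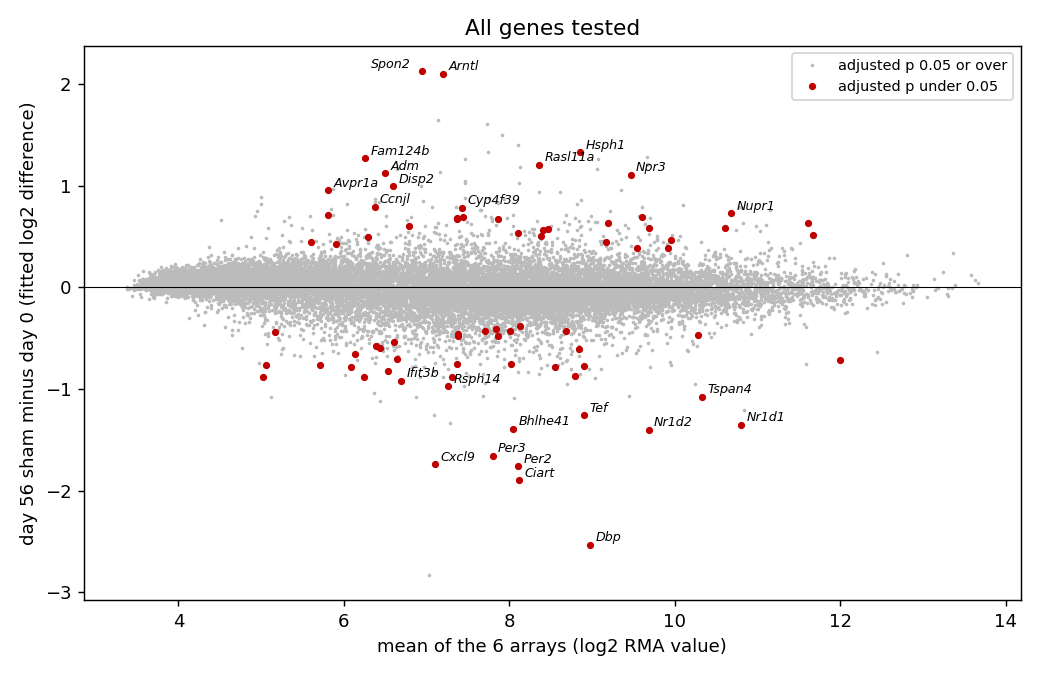
Each point is 1 of 19938 genes, with its mean over the 6 arrays (log2 RMA value) on the x axis and the fitted difference of day 56 sham minus day 0 (log2) on the y axis. Red points are the 76 genes called at an adjusted p under 0.05, and the 24 genes of the naming rule are labelled: Spon2 and Arntl stand highest and Dbp lowest among the called genes.

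The clock genes made up the group with the largest share of called members among the lists of more than 2 genes. Of 21 measured genes of the core loop and its output 11 were called (52.4%, against 0.381% of all genes), 1 higher and 10 lower in sham, and the median was -0.73 against 0.013. By sign alone 16 were negative and 5 positive. The core loop had 6 called genes of 12 and the output genes 5 of 9. These counts ranged from 9 to 15 of the 21 over all alternative settings.

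The promoters of 5 called clock genes are shown so that they can be read for the elements through which the loop is known to act. They are the called clock genes with the largest differences that have an entry in the RefSeq promoter table (assembly GRCm38.p6), each 250 bases before to 50 bases after the transcription start, 5′ to 3′ on the gene's strand. Capitals mark matches on either strand to short patterns, named here as an E-box (CACGTG), a D-box (TTANGTAA) or a ROR element (TNGGTCA), with N any base. The ROR pattern thus leaves its second base open and asks for no bases before it, so a match need not be a full ROR element. Elements that differ from a pattern are not marked, and whether the matched bases are bound was not tested. Dbp is at chr7:45704997-45705296 (plus strand), Arntl at chr7:113207215-113207514 (plus, the first of 2 starts in the table), Ciart at chr3:95882179-95882478 (minus), Per3 at chr4:151044616-151044915 (minus) and Nr1d2 at chr14:18239057-18239356 (minus).
Dbp: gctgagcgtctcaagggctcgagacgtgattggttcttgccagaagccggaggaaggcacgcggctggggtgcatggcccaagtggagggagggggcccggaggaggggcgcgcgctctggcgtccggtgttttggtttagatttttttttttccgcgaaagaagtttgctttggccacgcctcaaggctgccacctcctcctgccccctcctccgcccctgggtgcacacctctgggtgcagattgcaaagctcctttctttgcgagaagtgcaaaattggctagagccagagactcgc
Arntl: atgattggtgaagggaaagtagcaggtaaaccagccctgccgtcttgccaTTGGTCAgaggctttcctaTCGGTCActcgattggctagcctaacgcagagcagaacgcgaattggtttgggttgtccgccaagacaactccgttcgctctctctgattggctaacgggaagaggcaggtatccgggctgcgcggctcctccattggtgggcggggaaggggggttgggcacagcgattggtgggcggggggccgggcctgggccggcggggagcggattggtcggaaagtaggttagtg
Ciart: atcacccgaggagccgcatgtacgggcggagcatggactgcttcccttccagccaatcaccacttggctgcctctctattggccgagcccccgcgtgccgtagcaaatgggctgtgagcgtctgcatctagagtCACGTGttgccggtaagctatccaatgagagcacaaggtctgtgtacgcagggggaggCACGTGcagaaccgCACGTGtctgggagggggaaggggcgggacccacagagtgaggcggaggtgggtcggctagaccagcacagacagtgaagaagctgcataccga
Per3: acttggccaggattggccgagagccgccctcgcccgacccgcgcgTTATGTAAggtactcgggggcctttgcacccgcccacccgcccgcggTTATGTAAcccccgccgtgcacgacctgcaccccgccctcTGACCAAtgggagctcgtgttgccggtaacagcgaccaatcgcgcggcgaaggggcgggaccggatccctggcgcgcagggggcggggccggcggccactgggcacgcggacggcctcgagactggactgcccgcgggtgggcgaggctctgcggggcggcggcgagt
Nr1d2: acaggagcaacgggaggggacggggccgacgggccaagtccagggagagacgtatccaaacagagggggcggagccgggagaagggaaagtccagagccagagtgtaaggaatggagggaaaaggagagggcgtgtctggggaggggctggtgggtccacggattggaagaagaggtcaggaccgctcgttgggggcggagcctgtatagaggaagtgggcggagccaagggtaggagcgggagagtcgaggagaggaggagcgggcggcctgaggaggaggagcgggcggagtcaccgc

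In these windows Arntl had 2 matches to the ROR pattern, TTGGTCA and TCGGTCA, 200 and 181 bases before the start. The window of its other start, not shown, held the same letters and also TAGGTCA, 30 bases after that start. Ciart had 3 E-boxes, 116, 58 and 44 bases before the start. Per3 had 2 D-boxes, 205 and 158 bases before the start, and 1 match to the ROR pattern at 118 bases. Dbp and Nr1d2 had no match in these 300 bases. Over the 9 called clock genes found in the table, 3 had an E-box, 1 a D-box and 4 a match to the ROR pattern in at least 1 window. None had a cyclic AMP element (TGACGTCA) or a heat shock element (GAANNTTC). The E-box stood in 7.15% of all 32851 promoters of the table, the D-box in 2.32%, the ROR pattern in 11%, the cyclic AMP element in 1.79% and the heat shock element in 7.86%. These shares are per single promoter, whereas a gene with several starts was counted if any of its windows matched, so the measures differ.

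Arntl, the activator, lay at 6.13, 6.21 and 6.11 at day 0 and at 8.35, 8.40 and 8.01 in sham. All sham arrays were well above all day 0 arrays, and the difference of 2.10 ± 0.14 (4.29-fold) had the smallest adjusted p of all genes, 1.55e-06. Its partner Clock lay at 9.02, 9.03 and 9.02 at day 0 and at 9.71, 9.81 and 9.23 in sham. The groups did not overlap, but the difference of 0.56 ± 0.16 did not pass (adjusted p = 0.172).

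Among the Period and Cryptochrome repressors, Per2 and Per3 were lower in every sham array. Per2 lay at 9.11, 8.99 and 8.86 at day 0 and at 7.41, 7.35 and 6.93 in sham, 3.38-fold lower (-1.76 ± 0.18, adjusted p = 0.000202). Per3 went from 8.76, 8.65 and 8.47 to 7.09, 6.89 and 6.93, 3.15-fold lower (-1.66 ± 0.18, adjusted p = 0.000312). Cry2 was lower by less, at 9.30, 9.19 and 8.94 against 8.75, 8.64 and 8.23 (-0.60 ± 0.12, adjusted p = 0.0369). Cry1 did not pass, with 6.97, 7.32 and 7.15 at day 0 and 7.04, 7.11 and 7.42 in sham (0.04 ± 0.11, adjusted p = 0.938). Per1, which is also induced acutely by hormones and stress, split by region: it lay at 9.71, 9.66 and 9.78 at day 0 and at 9.69, 9.82 and 7.78 in sham. Only the sham whole lung was low, and the difference did not pass (-0.62 ± 0.43, adjusted p = 0.715). Ciart, a further repressor of the activator, lay at 9.10, 9.22 and 8.89 at day 0 and at 7.49, 7.33 and 6.69 in sham, 3.72-fold lower (-1.90 ± 0.26, adjusted p = 0.00206). Its second probe set gave -2.13.

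The nuclear receptors that repress Arntl were both lower in sham. Nr1d1 lay at 11.53, 11.57 and 11.34 at day 0 and at 10.17, 10.21 and 10.01 in sham (-1.35 ± 0.15, 2.55-fold lower, adjusted p = 0.000237). Nr1d2 lay at 10.43, 10.41 and 10.31 at day 0 and at 9.22, 9.20 and 8.53 in sham (-1.40 ± 0.14, 2.64-fold lower, adjusted p = 0.000156). Rora, the activator that competes with them, overlapped between the groups (0.10 ± 0.14, adjusted p = 0.883). The casein kinases Csnk1d and Csnk1e, which phosphorylate the Period proteins, also overlapped (-0.05 ± 0.12 and -0.13 ± 0.19, adjusted p = 0.932 and 0.883).

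Output genes of the loop carried the largest fall of all called genes. Dbp, a PAR bZIP factor that binds the D-box and is driven by the activator, lay at 10.24, 10.26 and 10.23 at day 0 (SD 0.016) and at 8.14, 7.92 and 7.08 in sham. It was 5.78-fold lower (-2.53 ± 0.22, adjusted p = 3.65e-05), with the whole lung lowest. Tef, of the same family, went from 9.65, 9.52 and 9.44 to 8.39, 8.36 and 8.09 (-1.26 ± 0.11, adjusted p = 3.66e-05). The third member, Hlf, lay at 8.64, 8.81 and 9.05 at day 0 and at 7.86, 8.06 and 8.29 in sham. Its groups did not overlap and its adjusted p was 0.0748 (-0.76 ± 0.17). Nfil3, which binds the same element as a repressor, was the output gene with the opposite sign, at 6.82, 6.94 and 6.73 against 8.26, 8.40 and 7.61 (1.26 ± 0.27, adjusted p = 0.0618). Bhlhe41, an E-box repressor, was lower, with 8.91, 8.81 and 8.51 at day 0 and 7.52, 7.16 and 7.38 in sham (-1.39 ± 0.16, adjusted p = 0.000407). Its relative Bhlhe40 lay at -0.70 ± 0.18 (adjusted p = 0.142) and the deubiquitinase Usp2 at -0.73 ± 0.20 (adjusted p = 0.164). Wee1, a kinase that restrains entry into mitosis and is under clock control, lay at 9.32, 9.32 and 9.04 at day 0 and at 8.46, 8.48 and 8.12 in sham (-0.87 ± 0.16, adjusted p = 0.0278). Cipc, an inhibitor of Clock outside the lists and chosen after its values were seen, was lower by -0.41 ± 0.08 (adjusted p = 0.0345).

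**Figure D2:**
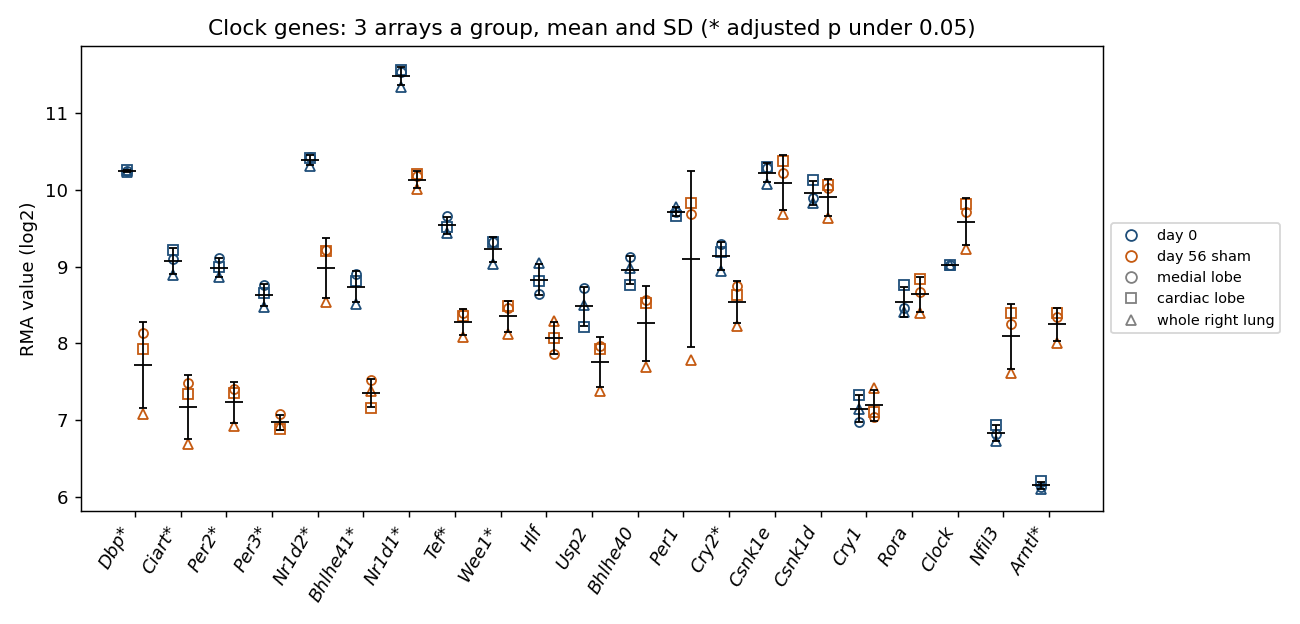
RMA values (log2, y axis) of the 21 measured clock genes on the 6 arrays, ordered from the lowest to the highest fitted difference. Blue symbols are day 0 and orange symbols day 56 sham, with shapes for the region and black bars for the mean and SD of 3 arrays. Dbp falls furthest, from a day 0 mean of 10.24 to 7.71, Arntl stands at 6.15 against 8.25, and the SD of Per1 in sham is widest because its whole lung array lies at 7.78.

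Dbp, Ciart, Per2, Per3, Nr1d2, Bhlhe41, Nr1d1, Tef and Arntl passed under every alternative in which they were tested, and whichever of the 6 arrays was left out. Arntl was not tested where the dimmer genes were left out, since its mean lay under that limit. Cry2 and Wee1 lost their calls whichever of the 6 arrays was left out.

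The levels of the clock genes in the pneumonectomy conditions place these values. Arntl had condition means of 6.15 at day 0, 6.66 at day 3, 6.29 at day 7, 8.02 at day 14, 6.39 at day 28, 5.87 at day 56 after pneumonectomy and 8.25 at day 56 after sham. Only the day 14 pneumonectomy mean came near the sham mean. Dbp went through 10.24, 9.48, 9.45, 8.14, 10.12 and 10.15 in the same order of days and lay at 7.71 in sham. Per2 ran through 8.99, 8.02, 8.21, 6.96, 8.19 and 8.91 and lay at 7.23 in sham. Both were lowest at day 14 and in sham. The groups of day 56 stood apart, since day 56 pneumonectomy minus sham was -2.38 ± 0.14 for Arntl (adjusted p = 2.39e-07), 2.43 ± 0.22 for Dbp (adjusted p = 6.35e-05) and 1.68 ± 0.18 for Per2 (adjusted p = 0.000245). Over the 21 clock genes, 8 were higher and 1 was lower after pneumonectomy than after sham at day 56 (67 of all genes were called, 0.336%). Against day 0 none of the 21 was called at day 56 after pneumonectomy (18 of all genes, 0.0903%), and Arntl lay at -0.28, Dbp at -0.10 and Per2 at -0.08. These comparisons share the day 0 or the sham arrays with the main comparison and are not independent of it.

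**Figure D3:**
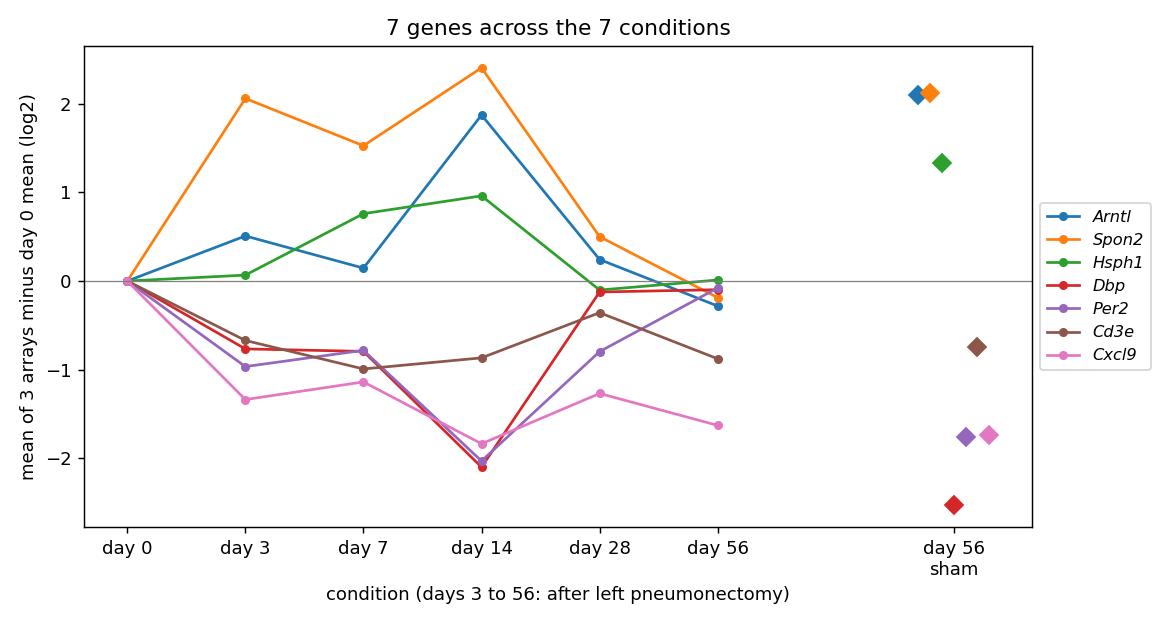
Condition means of 7 genes (3 arrays each) minus their day 0 mean, in log2 units on the y axis, for day 0, days 3 to 56 after left pneumonectomy (circles joined by lines) and day 56 sham (diamonds, spread sideways so that they do not cover each other). Arntl, Dbp and Per2 return to near 0 at day 56 after pneumonectomy and stand far from 0 at day 14 and in sham, whereas Cd3e and Cxcl9 lie below 0 in every later condition.

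Of 31 genes of protein folding 8 were called, all higher in sham, and the others did not pass. Molecular chaperones help proteins fold. Heat shock proteins do so in the cytosol and are switched on by heat and other stress, and a separate set serves the endoplasmic reticulum. Of 16 heat shock genes 5 were called, all higher (31.2%, against 0.176% of all genes), with a median of 0.39, and 15 of the 16 had a positive sign. Of 15 endoplasmic reticulum genes 3 were called, all higher (20.0%), with a median of 0.34, and 14 had a positive sign.

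Hsph1, a large HSP70 relative that serves as its exchange factor, lay at 8.29, 8.03 and 8.26 at day 0 and at 9.56, 9.15 and 9.86 in sham (1.33 ± 0.13, 2.51-fold, adjusted p = 0.000156). Every sham array was above every day 0 array. Hsp90aa1, the inducible cytosolic HSP90, went from 11.29, 11.20 and 11.40 to 11.97, 11.89 and 11.94 (0.63 ± 0.08, adjusted p = 0.00108), and its 3 probe sets gave 0.63, 0.63 and 0.64. Serpinh1, the collagen chaperone HSP47, lay at 8.81, 8.83 and 8.99 against 9.38, 9.68 and 9.46 (0.63 ± 0.12, adjusted p = 0.0286). The HSP90 partner Fkbp4 and the mitochondrial chaperonin Hspd1 were each higher by 0.39 ± 0.08 (adjusted p = 0.0443 and 0.0459), and the other probe set of Hspd1 gave 0.38 with an adjusted p of 0.687. The stress-induced genes Hspa1a and Dnajb1 were not called. Hspa1a, inducible HSP70, lay at 7.10, 7.27 and 7.54 at day 0 and at 7.97, 8.17 and 7.31 in sham, and the whole lung of sham was inside the day 0 range (0.51 ± 0.29, adjusted p = 0.626). Dnajb1, its HSP40 partner, lay at 8.17, 8.11 and 8.34 against 8.48, 8.36 and 7.62 (-0.05 ± 0.19, adjusted p = 0.958). Hspa1a and Dnajb1 were named after their values were seen, and Dnajb1 was the only one of the 16 heat shock genes with a negative sign.

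In the endoplasmic reticulum list Hspa5 (BiP), the main HSP70 of that compartment, lay at 11.37, 11.49 and 11.36 at day 0 and at 11.94, 11.99 and 11.84 in sham (0.52 ± 0.07, 1.43-fold, adjusted p = 0.00132). Creld2, a stress-induced resident protein, was higher by 0.58 ± 0.10 and Pdia6, a disulfide isomerase, by 0.46 ± 0.08 (adjusted p = 0.0146 for both). Rbm3, an RNA-binding protein known to be induced by mild cold, went the other way, from 12.45, 12.21 and 12.39 to 11.72, 11.57 and 11.62 (-0.71 ± 0.12, adjusted p = 0.0146), and its 3 probe sets gave -0.70, -0.71 and -0.65. Cirbp, the related cold-induced protein, lay at 9.55, 9.64 and 9.29 against 8.90, 8.96 and 9.40 (-0.41 ± 0.20, adjusted p = 0.572), with the sham whole lung inside the day 0 range. The call of Rbm3 was lost in the lobes alone (adjusted p = 0.076) and in 4 of the 6 fits that left out an array.

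**Figure D4:**
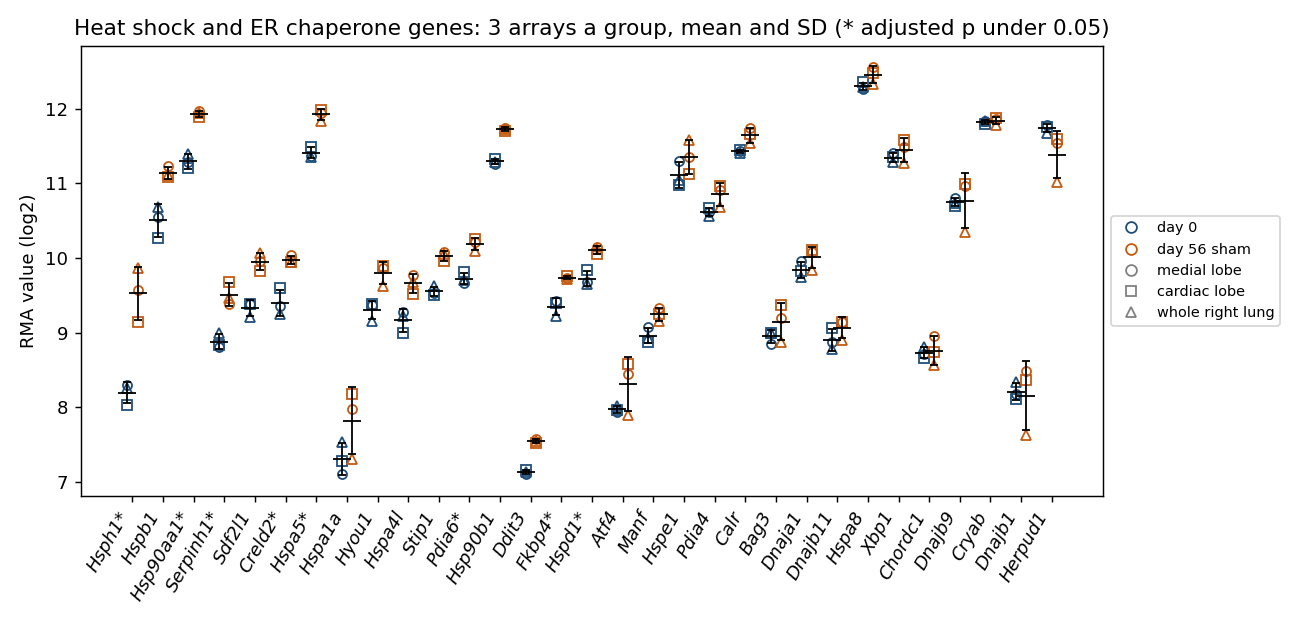
RMA values (log2, y axis) of the 31 measured heat shock and endoplasmic reticulum chaperone genes on the 6 arrays, ordered by the fitted difference from the highest. Blue symbols are day 0 and orange symbols day 56 sham, shapes give the region, and black bars are the mean and SD of 3 arrays. Hsph1 has the widest gap, and 29 of the 31 genes have a positive difference.

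At day 56 after pneumonectomy the chaperone genes lay near their day 0 levels. The median of the 31 genes was -0.08 against day 0, with none called (18 of all genes, 0.0903%). Against sham the median was -0.34, with 10 called lower (of all genes 67 were called, 0.336%, and 53 of these lower). Hsp90aa1 had means of 11.30 at day 0, 11.47, 11.61, 11.77, 11.31 and 11.18 at days 3 to 56 after pneumonectomy, and 11.93 in sham. Of the 8 called chaperone genes, 3 kept their call without the region term, 5 after repeated quantile normalization, 3 with only the 6 arrays in the fit and 2 in the lobes alone. Without the day 0 medial lobe, the day 0 cardiac lobe or the sham medial lobe 3 kept it, and without the sham cardiac lobe or the sham whole lung 4 did. Hsph1 and Hsp90aa1 passed under every alternative, and Hspa5 in 15 of 16. Fkbp4 and Hspd1 lost their calls whichever of the 6 arrays was left out, and passed in 4 and 3 of 16 alternatives. Serpinh1 passed in 7 of 16, and Creld2 and Pdia6 in 9 each.

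Outside the lists the gene with the largest rise was Spon2, a secreted matrix protein of the spondin family. It lay at 5.77, 5.91 and 5.95 at day 0 and at 7.77, 8.30 and 7.94 in sham (2.13 ± 0.34, 4.37-fold, adjusted p = 0.0117). High values were not limited to sham, since its means were 7.94, 7.40 and 8.28 at days 3, 7 and 14 after pneumonectomy, 6.38 at day 28 and 5.69 at day 56. Fam124b went from 5.64, 5.85 and 5.38 to 6.90, 6.92 and 6.86 (1.27 ± 0.17, adjusted p = 0.0016). Rasl11a, a small GTPase of the Ras family, went from 7.93, 7.63 and 7.70 to 9.14, 8.98 and 8.76 (1.21 ± 0.15, adjusted p = 0.000912). Both reached like means at day 14 after pneumonectomy, 7.01 for Fam124b and 8.95 for Rasl11a, as against 6.89 and 8.96 in sham.

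Npr3, the clearance receptor for natriuretic peptides, lay at 8.82, 9.30 and 8.62 at day 0 and at 9.86, 10.28 and 9.92 in sham (1.11 ± 0.17, 2.15-fold, adjusted p = 0.00708). Adm, the vasodilator peptide adrenomedullin, lay at 5.80, 5.83 and 6.17 against 6.94, 7.49 and 6.74 (1.12 ± 0.19, adjusted p = 0.0176). It was the only called member of 11 hypoxia response genes (9.09%, against 0.176% of all genes called higher). Avpr1a, a vasopressin receptor, lay at 5.38, 5.35 and 5.27 against 6.54, 6.41 and 5.92 (0.96 ± 0.19, adjusted p = 0.0382). The pneumonectomy means of Npr3 lay between 8.39 and 9.16, those of Adm between 6.04 and 6.29 and those of Avpr1a between 5.59 and 5.90, all under the sham means of 10.02, 7.06 and 6.29. Npr3 lost its call without the region term (adjusted p = 0.112), in the lobes alone (0.113) and without the day 0 medial or the sham cardiac lobe (0.0645 and 0.0589). Adm and Avpr1a lost theirs without the region term (adjusted p = 0.0522 and 0.0702) and in 4 and 5 of the 6 fits that left out an array. Fgf10, the growth factor with which lung mesenchyme guides branching, was the only called gene of 13 fibroblast genes (7.69%, against 0.176% of all genes called higher). It lay at 6.81, 7.33 and 6.95 at day 0 and at 7.57, 7.91 and 7.61 in sham (0.67 ± 0.09, 1.59-fold, adjusted p = 0.00206), and its pneumonectomy means ran from 7.00 to 7.13. Day 56 pneumonectomy minus sham was -0.67 for Fgf10 (adjusted p = 0.00175). The call of Fgf10 was lost in the lobes alone (adjusted p = 0.0887).

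The other named rises were Disp2, of the Dispatched family of membrane proteins (1.99-fold, adjusted p = 0.024), the cyclin-like Ccnjl (0.79 ± 0.15, adjusted p = 0.0286), the cytochrome P450 Cyp4f39 (0.78 ± 0.14, adjusted p = 0.0193) and Nupr1, a stress-induced nuclear protein (0.73 ± 0.09, adjusted p = 0.00105). Ccnjl, Cyp4f39 and Disp2 were lowest in the whole lung within sham, at 6.21, 7.33 and 6.60. Nupr1 lay at 10.54, 10.07 and 10.36 at day 0 and at 11.16, 10.96 and 11.03 in sham. Among the named falls, Tspan4, a membrane tetraspanin, was at 10.74, 10.98 and 10.87 at day 0 and at 9.64, 9.88 and 9.87 in sham (-1.07 ± 0.11, 2.1-fold lower, adjusted p = 0.000202). Its pneumonectomy means were 10.72, 10.71, 9.95, 10.50 and 10.86. Rsph14, a radial spoke protein gene of cilia, went from 8.06, 7.29 and 7.89 to 6.99, 6.54 and 6.79 (-0.97 ± 0.18, adjusted p = 0.0286). Tspan4 and Rasl11a passed under every alternative, and so did Fam124b except where the dimmer genes were left out, in which it was not tested. Disp2, Ccnjl and Cyp4f39 lost their calls without the region term and in 4 of the 6 fits that left out an array, and Nupr1 in the lobes alone (adjusted p = 0.0542). Spon2 lost its call without the sham medial lobe, the day 0 cardiac lobe or the sham cardiac lobe (adjusted p = 0.0668, 0.064 and 0.0623) and in the lobes alone (0.0851), and Rsph14 whichever of the 6 arrays was left out.

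Of 22 T and NK cell genes 3 were called, all lower in sham (13.6%, against 0.206% of all genes), and all 22 had a negative sign with a median of -0.57 and 16 an unadjusted p under 0.05. Cd3g, a chain of the T cell receptor complex, lay at 7.59, 8.33 and 7.30 at day 0 and at 6.75, 7.11 and 6.73 in sham (-0.88 ± 0.17, adjusted p = 0.0369). Cd3e, another chain, lay at 8.12, 8.51 and 8.55 against 7.63, 7.72 and 7.57 (-0.75 ± 0.14, adjusted p = 0.0286). Cd4, the coreceptor of helper T cells, lay at 6.12, 6.60 and 6.68 against 5.71, 5.93 and 5.80 (-0.65 ± 0.12, adjusted p = 0.022). The groups of these 3 genes did not overlap. In bulk tissue fewer cells of a type and less RNA per cell cannot be told apart. Leaving out the sham medial lobe, the day 0 cardiac lobe, the sham cardiac lobe or the sham whole lung left 0 calls, as did the lobes alone, and leaving out the day 0 whole lung left 1 (limma).

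B cell genes had the same sign without a call. All 17 B and plasma cell genes had a negative sign, with a median of -0.52, and 10 of them had an unadjusted p under 0.05. Ms4a1 (CD20) lay at 9.07, 9.15 and 9.28 at day 0 and at 7.98, 8.27 and 8.42 in sham (-0.95 ± 0.23, adjusted p = 0.0981). Cd22 differed by -0.52 ± 0.14 (adjusted p = 0.165). Among 9 genes of MHC class II presentation H2-Oa, which tunes peptide loading in B cells, was called, at 7.54, 7.85 and 7.83 against 6.77, 7.09 and 7.11 (-0.75 ± 0.14, adjusted p = 0.0278). This was 11.1% of the list, against 0.206% of all genes called lower. All 9 had a negative sign, with a median of -0.25. H2-Oa lost its call without the region term (adjusted p = 0.161) and in 5 of the 6 fits that left out an array.

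Of 23 interferon response genes 1 was called, lower in sham (4.35%, against 0.206% of all genes), and 21 had a negative sign with a median of -0.28 against 0.013. The called gene was Cxcl9, the interferon-gamma-induced chemokine that attracts T cells. It lay at 8.01, 8.37 and 7.55 at day 0 and at 6.06, 6.26 and 6.39 in sham, 3.34-fold lower (-1.74 ± 0.28, adjusted p = 0.0129). Its call was lost without the region term (adjusted p = 0.135), in the lobes alone (0.0552) and without the day 0 medial, sham medial, day 0 cardiac or sham cardiac lobe (0.1, 0.0612, 0.0504 and 0.0939). Ifit3b, an interferon-induced gene named as 1 of the 12 largest falls, went from 7.30, 7.27 and 6.88 to 6.71, 6.07 and 5.91 (-0.92 ± 0.17, adjusted p = 0.0286). It has closely related copies, so which copy was measured is uncertain, and its call was lost without the region term (adjusted p = 0.196) and in 5 of the 6 fits that left out an array. Ifi214 (-0.88 ± 0.12), Gimap3 (-0.88 ± 0.17), Cd96 (-0.77 ± 0.13), Gbp5 (-0.58 ± 0.11) and Traf3ip3 (-0.44 ± 0.08), immune genes in none of the lists and chosen after their values were seen, were also called lower (adjusted p = 0.00307, 0.0329, 0.0193, 0.0303 and 0.0193). Of the 6 fits that left out an array, Ifi214 kept its call in 6, Cd96 in 2, Gimap3 and Gbp5 in 1 each and Traf3ip3 in 0. Ifi214 belongs to the Ifi200 family, whose list did not hold it. Of the 8 measured genes of that list none was called, and 7 had a negative sign with a median of -0.47.

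The T and NK cell genes at day 56 after pneumonectomy lay near sham. Cd3e had means of 8.39 at day 0, 7.72, 7.40, 7.52, 8.03 and 7.51 at days 3 to 56 after pneumonectomy, and 7.64 in sham. The median of the 22 T and NK cell genes was -0.62 for day 56 pneumonectomy minus day 0, with 2 called lower (of all genes 18 were called, 0.0903%, and 17 of these lower). For day 56 pneumonectomy minus sham the median was -0.08, with none called (67 of all genes, 0.336%). Cxcl9 had a mean of 7.98 at day 0 and between 6.14 and 6.84 in all later conditions, sham included. Day 0 was thus the highest of the 7 conditions for Cd3e and Cxcl9, and both comparisons with day 0 rest on the same 3 day 0 arrays.

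Of 56 lists, 46 had no called gene. Among airway lists, all 17 ciliated cell genes had a negative sign, with a median of -0.46, and 11 had an unadjusted p under 0.05 (limma), led by Ccdc40 (-0.43 ± 0.09, adjusted p = 0.0664) and the axonemal dynein Dnah5 (-0.76 ± 0.17, adjusted p = 0.0748). Of 14 club and mucous cell genes 12 had a negative sign, with a median of -0.45, and 5 had an unadjusted p under 0.05. Clca1, a mucous cell secretion, had the largest fitted difference of all genes without a call, at 6.62, 9.13 and 9.58 at day 0 and 5.43, 5.46 and 5.96 in sham (-2.83 ± 0.83, adjusted p = 0.209). The mucin Muc5b lay at -1.07 ± 0.31 (adjusted p = 0.21), and the club cell secretoglobin Scgb1a1, chosen after its values were seen, at 0.16 ± 0.10.

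Of 24 endothelial genes 22 had a positive sign, with a median of 0.23, led by Cldn5, a tight junction claudin (0.44 ± 0.12, adjusted p = 0.153). None was called, and 7 had an unadjusted p under 0.05 (limma), against 9.31% of all genes. Cardiac muscle cells line the pulmonary veins of mice. All 18 cardiac muscle genes had a positive sign, with a median of 0.36, 6 at an unadjusted p under 0.05 and none called (limma). Proliferation genes had small differences. Of these, 27 of 29 mitosis genes had a negative sign with a median of -0.18, and 25 of 27 DNA replication genes with a median of -0.19. None was called in either list (limma), and 0 and 5 had an unadjusted p under 0.05. Lung development genes had a median of -0.01, imprinted growth genes 0.05, fibrillar collagen and stroma genes 0.14 and respiratory chain genes -0.04, with none called.

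**Figure D5:**
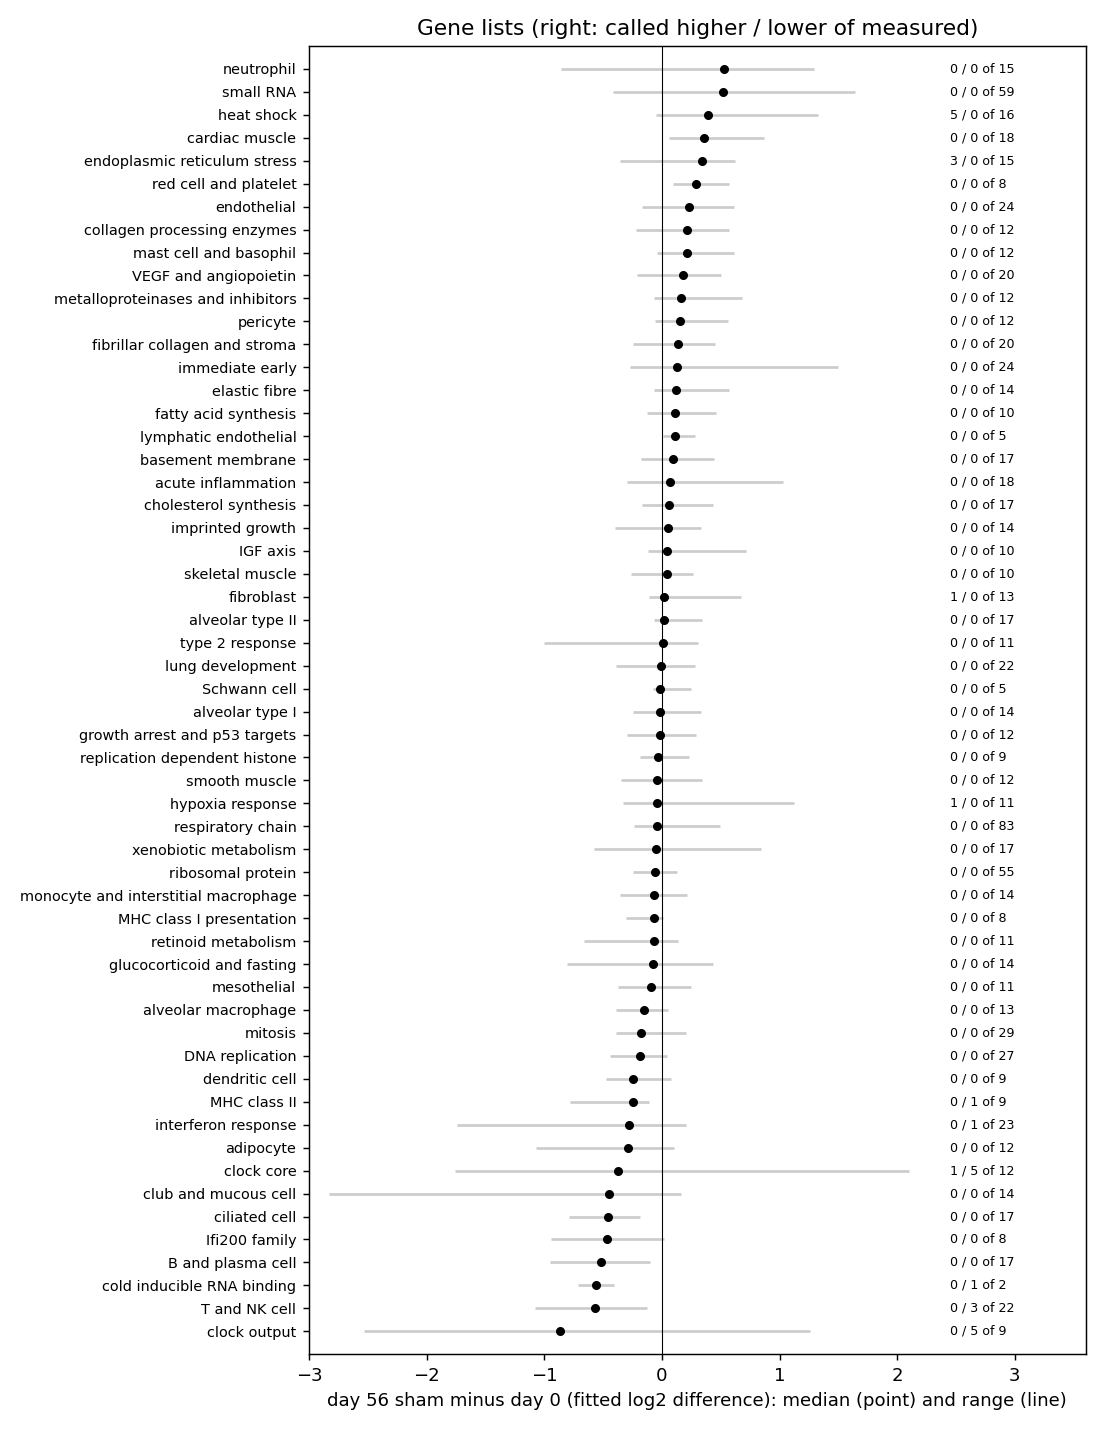
Each line is 1 gene list, with the range of its members' fitted differences of day 56 sham minus day 0 (log2, x axis) and the median as a point. The figures at the right give how many members were called higher and lower of those measured. The clock output list has the lowest median (-0.87) and the neutrophil list the highest (0.53, none called).

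The sham whole lung stood apart from the sham lobes in several lists. The mean of 15 neutrophil genes was 6.97, 6.92 and 7.95 in sham and 6.77, 6.72 and 6.77 at day 0, so that only the sham whole lung was high. S100a8, a neutrophil alarmin, lay at 9.67, 8.59 and 8.80 at day 0 and at 9.93, 9.33 and 11.65 in sham (1.29 ± 0.43, adjusted p = 0.287). Immediate early genes, which respond to stimulation within minutes, split the other way. The mean of 24 such genes was 8.96, 9.06 and 9.04 at day 0 and 9.61, 9.78 and 8.64 in sham, with both sham lobes high. Fosb, a Fos family factor chosen after its values were seen, lay at 7.06, 7.25 and 7.18 at day 0 and at 9.49, 9.92 and 6.59 in sham. Atf3, a stress-induced factor chosen in the same way, lay at 8.13, 8.45 and 8.76 at day 0 and at 10.47 and 10.67 in the sham lobes, with the sham whole lung below all 3 day 0 values. None of the neutrophil or immediate early genes was called (limma). An unadjusted p under 0.05 was found for 4 neutrophil genes that were higher and 1 that was lower, for 7 immediate early genes, all higher, and for 9.31% of all genes. Without the sham whole lung Fosb and Atf3 were called, at 2.58 and 2.11 (adjusted p = 0.0092 and 0.00828). The mean of 59 small RNA genes was 6.90, 6.93 and 7.77 at day 0 and 7.32, 7.00 and 8.86 in sham, with the whole lungs high in both groups, a median difference of 0.52, 7 at an unadjusted p under 0.05 and none called. The part of these region differences in the clock, chaperone and T cell results was not tested; without the sham whole lung 10 clock genes, 4 chaperone genes and 0 T and NK cell genes were called.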

How the data were processed

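RNA of 21 right lung samples was hybridised to Affymetrix arrays with 1 biotin label, per the labels. The authors deposited RMA values on the log2 scale, 1 for every probe set on every array, per the submitters' processing notes. The version of RMA is not given in the sources used here. One hybridisation date is labelled for all arrays. The labels' protocols describe a 3′ amplification kit, while the probes are annotated as those of an array for whole transcripts. Platform annotation gave 1 gene symbol for 21789 of 35556 probe sets, several for 1621 and none for 12146. RefSeq gene numbers (GRCm38.p6) matched 21698 of the first. Of 19938 genes, 999 had several probe sets and were represented by the one with the highest mean.

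With limma 3.58.1 (R 4.3.3) each gene got a linear model of condition plus region over the 21 arrays, with 12 residual degrees of freedom and moderated variances. Regions were numbered as replicates for the fit (medial 1, cardiac 2, whole 3). The labels give the region of each array but no replicate number, and arrays were paired by region. The threshold for a call was an adjusted p of 0.05 (Benjamini-Hochberg). On simulated data 41 of 100 genes shifted by log2 0.5 and 95 of 100 shifted by log2 1 were recovered, with 9 unchanged genes called.

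The members, the 56 gene lists and the tests were chosen with earlier results of these data known. Named genes were, of the called genes with 1 sign in all regions, the 12 that rose most and the 12 that fell most, passing over predicted and small RNA genes, and up to 5 called members of each list described, or the 2 with the smallest p. Motifs were searched on both strands of the RefSeq promoters. Alternatives were no region term, other choices of probe set, leaving out dimmer genes, trend and robust moderation, centring, repeated quantile normalization, only the 6 arrays, the lobes alone, leaving out the 2 arrays that stood apart or each of the 6 arrays, and, chosen after seeing the data, all probe sets.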

Additional observations from a re-analysis of the deposited data

Results flagged for a closer look

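Probe sets without a single gene symbol lay outside the gene comparison. Of 13767 such probe sets 2 were called between day 56 sham and day 0 when all 35556 probe sets were fitted (limma, 0.0145%), both higher in sham. Probe set 10345675 lay at 7.06, 6.69 and 6.84 at day 0 and at 8.97, 8.93 and 8.80 in sham (medial lobe, cardiac lobe, whole lung), a difference of 2.04 (adjusted p = 0.000491). Its means after pneumonectomy were 6.99, 6.69, 8.43, 7.01 and 6.40 at days 3, 7, 14, 28 and 56. Probe set 10416099 lay at 6.45, 6.67 and 6.44 at day 0 and at 7.29, 7.72 and 7.60 in sham, a difference of 1.02 (adjusted p = 0.000652), and its means after pneumonectomy ran from 6.24 to 6.70.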

How the results depend on the processing

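With 3 arrays a group and 1 per region, the counts moved with the settings while none of the 76 called genes reversed its sign under any alternative in which it was tested. The count of called genes was 76. It was 32 without the region block, 46 with the dimmer genes left out, 46 with all probe sets (chosen after seeing the data), 139 with only the 6 arrays compared (41 higher, 98 lower, 46 of them among the 76), 342 without the 2 arrays of other conditions that stood apart, and 23 to 89 when 1 of the 6 arrays was left out. The count of 8 chaperone calls, not always of the same genes, became 3 without the region block, 5 after quantile normalization, 5 with only the 6 arrays, 3 in the lobes alone, 13 without the 2 arrays and 3 to 6 with 1 array left out. The count of 3 T and NK cell calls became 1 without the region block, 1 without dimmer genes, 7 with only the 6 arrays, 0 in the lobes alone, 6 without the 2 arrays and 0 to 2 with 1 array left out (limma). The count of clock calls stayed between 9 and 15, with 9 of the 11 calls shared without the region block. In the lobes alone the uncalled differences of Cry1, Csnk1d, Csnk1e and Per1 changed sign, to -0.07, 0.02, 0.0025 and 0.07, and with 1 array left out they ran from -0.04 to 0.14, -0.14 to 0.01, -0.26 to -0.03 and -1.06 to 0.08. The uncalled Dnajb1 lay at 0.28 in the lobes alone and at -0.18 to 0.15 with 1 array left out, Scgb1a1 at -0.01 to 0.25 and Sftpc at -0.03 to 0.07. The cause of these shifts was not tested. The file carries no detection call, so how far dim genes exceed background is not known here.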

Other observations

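Other called genes belonged to none of the lists, and those given here were chosen after their values were seen. Called higher in sham were Gap43, a growth cone protein (0.60 ± 0.11, adjusted p = 0.0243), Mapt, the microtubule protein tau (0.69 ± 0.13, adjusted p = 0.0286), Kcnj3, a potassium channel (0.71 ± 0.13, adjusted p = 0.0286), and Nsg1 (0.57 ± 0.11, adjusted p = 0.0286), all by limma, and each lost its call in at least 4 of the 6 fits that left out an array. Gap43 lay at 6.45, 6.72 and 6.27 at day 0 and at 7.09, 7.27 and 6.90 in sham, and its mean at day 56 after pneumonectomy was 6.98. Kcnj3 lay at 5.46, 5.45 and 5.45 at day 0 and at 6.31, 6.00 and 6.17 in sham, above its pneumonectomy means of 5.23 to 5.71.

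Pfkfb3, which makes the activator of glycolysis fructose 2,6-bisphosphate, went from 8.84, 9.23 and 8.76 to 8.24, 8.26 and 7.98 (-0.78 ± 0.13, adjusted p = 0.0176). Mthfd1l, a mitochondrial enzyme of folate metabolism, differed by -0.71 ± 0.13 (adjusted p = 0.0278), and Eci2, an enzyme of fatty acid oxidation, by -0.43 ± 0.09 (adjusted p = 0.0369). Etfbkmt, a lysine methyltransferase of mitochondria, differed by -0.77 ± 0.12 (adjusted p = 0.00814), but its other probe set gave 0.02 (adjusted p = 0.958), so the gene's own probe sets disagree. Of the 6 fits that left out an array, Etfbkmt kept its call in 3, Pfkfb3 in 2, Mthfd1l in 1 and Eci2 in 0.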
